A study of Mus musculus with 8 samples.

Results

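The transcripts described here are those of 7 endoderm transcription factors other than the Gata factors: the forkhead proteins Foxa1, Foxa2 and Foxa3, the SoxF proteins Sox7 and Sox17, the nuclear receptor Hnf4a and the homeodomain protein Hhex. They were taken as every non-control probe that carries one of these gene names on the array, which gave 9 of 55681 probes. Foxa2 and Sox17 had 2 probes each and the other 5 genes had 1. All 9 probes were well above background on every array of at least 1 group, so all 7 genes were among the 21750 genes tested.

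Messenger RNA was measured in mouse cells on day 6 of a neural induction in which embryonic stem cells (ESC) become neural progenitor cells (NPC) that resemble radial glia. The 4 control samples carried a control short hairpin RNA and the 4 knockdown samples carried one against Zrf1, a ribosome-associated chaperone that also acts in chromatin and is named Dnajc2 in current annotation. Both groups share the day and the induction, and each sample gave 100 ng of RNA, copied with an oligo-dT primer and labelled with Cy3 on an array of its own. The parent ESC line, and whether the hairpin cells were 1 clone or a pool, are not stated by the labels or the series text. Nothing states that the samples of a group came from separate cultures, so p-values measure the spread between these samples only.

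Foxa proteins are pioneer factors that open chromatin in the foregut, liver and pancreas, and Foxa2 also marks the node and the floor plate of the neural tube. Sox7 and Sox17 act in the extraembryonic endoderm of the yolk sac, Sox17 also in definitive endoderm, and both in endothelium. Hnf4a drives the plasma protein and lipid transport genes of visceral endoderm and liver, and Hhex is made in the anterior visceral endoderm and in the liver and thyroid buds.

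The probes decide what each value stands for, so the stretches that differ within a gene, or that carry the largest changes, are shown here as the first 30 of 60 bases, 5′ to 3′ as in the scanner files, in lower case because no motif is marked. Positions are on mouse genome build mm9. The Foxa2 probes lie at chr2:147868669-147868728 and chr2:147868614-147868673 on the minus strand and share 5 bases at their ends. The Sox17 probes lie at chr1:4481503-4481562 and chr1:4481038-4481097 on the minus strand, with starts 465 bases apart. The Foxa1 probe lies at chr12:58641764-58641823 on the minus strand, the Sox7 probe at chr14:64569419-64569478 on the plus strand and the Hnf4a probe at chr2:163398548-163398607 on the plus strand.
Foxa2, A_55_P2134236: cgggtctgatttaatttatggtttctgcgt
Foxa2, A_55_P2067533: tgttctggctagaatggccagaattccaca
Sox17, A_55_P2157023: ctcactgacttattccatttcttgaaagtg
Sox17, A_55_P2094706: cccacttcccacaaaatttgcctttaattc
Foxa1, A_55_P2053933: gcatggtttactccttttctttacagccga
Sox7, A_51_P476018: agtcccggatggatattaataatctcgtga
Hnf4a, A_55_P1959633: ggggtaaaaaagagaaaaagccctcaaaaa

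The RefSeq promoter table (build GRCm38.p6) held 5 of the 7 genes with 8 start sites. The 250 bases before each start were searched on both strands for a GATA motif (AGATAA), 2 forkhead motifs (TGTTTAC and TGTTTGC), a Sox motif (AACAAT) and an HNF4 motif (CAAAGTCCA). There were 3 matches, each in a window of its own, so none overlapped another. The GATA letters stood 52 bases before the upstream start of Hnf4a and 183 bases before the third start of Foxa2, and are present in 9.99% of 32851 promoters. The forkhead letters TGTTTAC stood on the opposite strand 141 bases before the start of Foxa1, and are present in 3.17% of promoters. The 2 windows printed belong to the gene with the largest rise among those measured in both groups and to the gene that fell. Capitals mark the GATA match in Hnf4a (chr2:163506607-163506856, plus strand) and the reverse complement of the forkhead match in Foxa1 (chr12:57546112-57546361, minus strand).
Hnf4a, upstream start: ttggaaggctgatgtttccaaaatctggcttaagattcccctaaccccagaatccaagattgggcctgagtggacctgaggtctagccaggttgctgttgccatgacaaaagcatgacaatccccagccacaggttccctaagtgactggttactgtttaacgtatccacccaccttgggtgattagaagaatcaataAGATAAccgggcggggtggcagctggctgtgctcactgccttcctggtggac
Foxa1, start: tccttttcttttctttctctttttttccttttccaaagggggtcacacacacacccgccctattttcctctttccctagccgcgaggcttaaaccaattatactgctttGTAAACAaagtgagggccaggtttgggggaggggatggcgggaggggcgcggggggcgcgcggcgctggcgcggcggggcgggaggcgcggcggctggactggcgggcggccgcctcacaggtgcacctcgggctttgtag
A match describes letters in the window and not a bound site, and none of the other motifs named was found in the 8 windows.

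Signals are given as log2 of the processed intensity minus the 75th percentile of the array, so that 0 is that percentile, and changes are knockdown minus control. Dnajc2 itself fell from 1.87 ± 0.11 to -2.32 ± 0.23 (SD, n = 4 each), an 18.3-fold drop with no overlap. On each array 53.4% to 60.3% of 59305 spots were well above background and none was saturated. Of the neural progenitor markers, 10 of 12 were called lower and none higher, and their summed level, relative to the percentile, went from 132.0 to 142.9 in control arrays to 35.2 to 37.0 in knockdown arrays. In bulk RNA, fewer cells of a type and less RNA per cell cannot be told apart.

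Of the 7 genes, 5 rose, 1 fell and 1 was not called at an adjusted p of 0.05 (limma, adjusted over all 29091 tested probes). In the same comparison 57.6% of all tested genes were called, 29.1% higher and 28.5% lower. The median change of the 7 genes was 0.55, against 0.044 over all tested genes. The groups did not overlap for 6 of the 7 genes, where 55% of all tested genes had no overlap. Among the 6 genes measured in both groups the changes ran from Hnf4a through Hhex and Sox17 to Foxa2, Foxa3 and Foxa1. Sox7 has no place in this order, since its control signals were below background. It passed the filter through the knockdown arrays alone, yet is counted among the 5 higher genes and the 6 without overlap. With probes required to be well above background on all 8 arrays, Sox7 was not fitted, and 4 genes were called higher and 1 lower. The count of 5 higher became 3 in 4 other settings, in each of which Sox17 and Foxa2 were not called: scaling to the array median, averaging the knockdown arrays that share a file-name number, leaving out knockdown arrays 1 and 2, and slide 3 alone. Counted by probe, 5 of 9 were called higher, 1 lower and 3 were not called, beside 57% of all tested probes called, 29% higher and 28.1% lower.

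**Figure D1:**
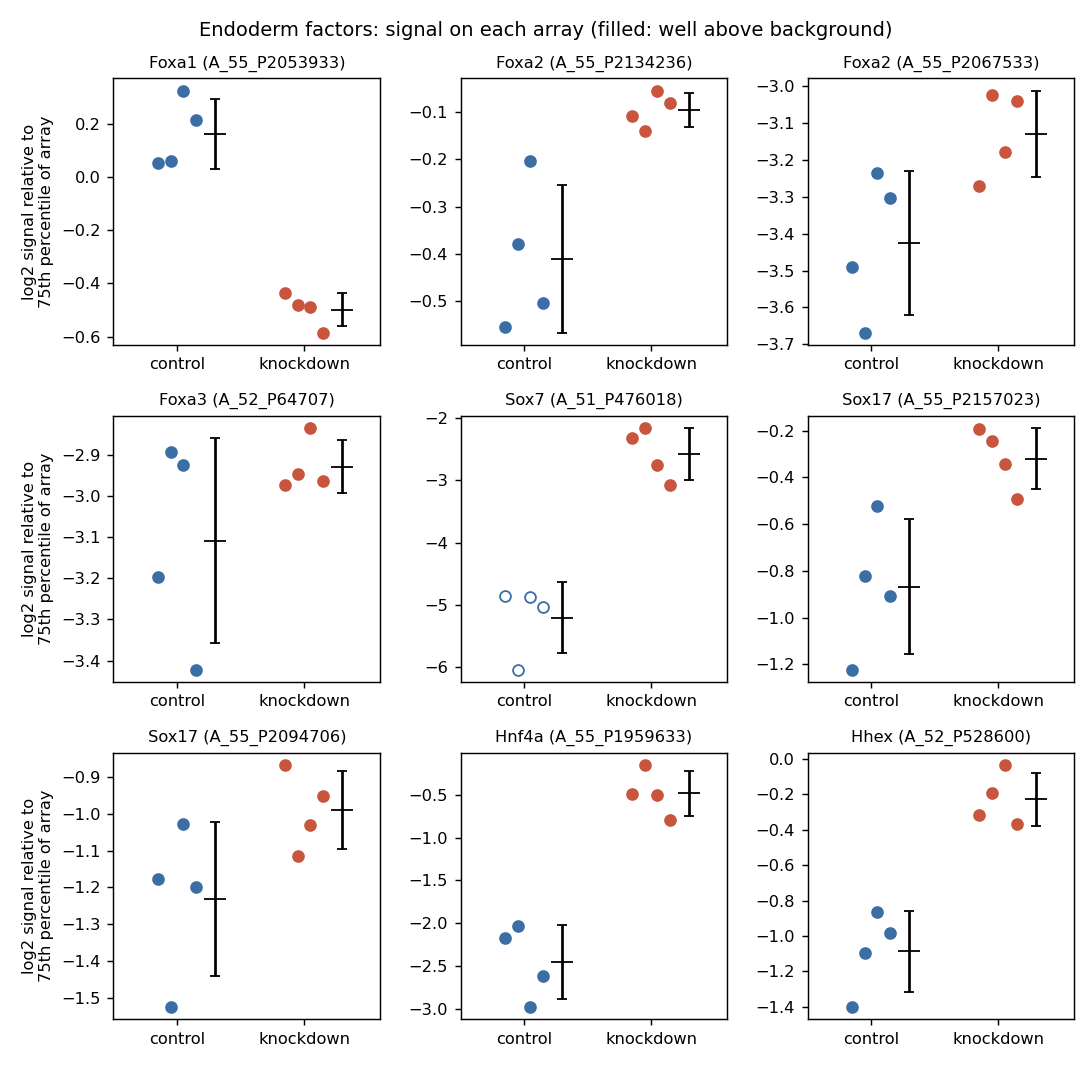
Log2 signal relative to the array's 75th percentile (vertical axis, own scale in each panel) of the 9 probes on the 4 control (blue) and 4 knockdown (red) arrays, with mean and SD in black; open points were not well above background. Hnf4a, Hhex, Sox7 and Foxa1 show wide gaps between groups, and the open Sox7 points are the 4 control arrays.

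Hnf4a, the nuclear receptor, rose 3.89-fold. Its signal was -2.17, -2.03, -2.97 and -2.62 on control arrays 1 to 4 and -0.49, -0.15, -0.50 and -0.80 on knockdown arrays 1 to 4. The lowest knockdown array stood 1.23 above the highest control array, and control arrays 3 and 4 were the low ones. The group means were -2.45 ± 0.43 and -0.49 ± 0.26 (SD, n = 4 each), a change of 1.96 (SE 0.23, limma adjusted p = 0.000124). The arrays came from 3 slides, each holding both groups, and the change within a slide was 1.37, 1.54 and 2.47. It was called under each of the 23 other processing settings run, with changes from 1.38 to 2.47.

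Hhex, the homeodomain repressor, rose 1.81-fold. Its signal was -1.40, -1.10, -0.87 and -0.98 on control arrays and -0.32, -0.19, -0.035 and -0.37 on knockdown arrays. Control array 1 was the lowest, and all knockdown arrays lay above all control arrays, with a gap of 0.50. The change was 0.86 (SE 0.13, limma adjusted p = 0.000597), from -1.09 ± 0.23 to -0.23 ± 0.15. The 3 slides gave 1.03, 0.78 and 0.81, and each of the 23 other settings kept the call.

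Sox7, a factor of primitive and parietal endoderm and of endothelium, passed from below to above detection. Its probe was not well above background on any of the 4 control arrays, at -4.86, -6.04, -4.87 and -5.03, and was well above it on all 4 knockdown arrays, at -2.33, -2.16, -2.76 and -3.07. Against the lowest signal that counts as well above background on each control array, the knockdown level was at least 2.87-fold higher. The measured means were -5.20 ± 0.56 and -2.58 ± 0.41, with a limma adjusted p of 0.000136 that uses the dim signals as they are. The size of the measured difference, 2.62, depends on how dim spots are treated: it was 1.05 with a normexp background correction and 0.91 in the authors' value table, called in both. Control array 2 was the lowest of its group, and its slide gave the widest difference, 3.70, against 1.79 and 2.49 on the other slides; without it the call held.

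Sox17, the SoxF partner needed for definitive endoderm, rose 1.46-fold by its brighter probe. The signal of A_55_P2157023 was -1.22, -0.82, -0.52 and -0.91 on control arrays and -0.19, -0.24, -0.34 and -0.49 on knockdown arrays. The groups were 0.028 apart, with control array 3 next to knockdown array 4. The change was 0.55 (SE 0.15, limma adjusted p = 0.0122). The second probe gave -1.18, -1.52, -1.03 and -1.20 against -0.87, -1.11, -1.03 and -0.95, which overlap. Its change was 0.24 (SE 0.11), with a limma adjusted p of 0.106 that became 0.0465 without control array 3. The call of the brighter probe was lost with scaling to the array median (0.38, limma adjusted p = 0.141), with knockdown arrays of a shared file-name number averaged (0.55, limma adjusted p = 0.0619), without knockdown arrays 1 and 2 (0.45, limma adjusted p = 0.110) and on the 4 arrays of slide 3 alone (0.42, limma adjusted p = 0.115).

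Foxa2, the Foxa protein of node, definitive endoderm and floor plate, rose 1.24-fold by its brighter probe. The signal of A_55_P2134236 was -0.55, -0.38, -0.20 and -0.50 on control arrays and -0.11, -0.14, -0.055 and -0.081 on knockdown arrays. The knockdown arrays lay close together, and control array 3 came within 0.063 of them. The change was 0.31 (SE 0.087, limma adjusted p = 0.0143). It was not called after scaling to the array median (0.14, limma adjusted p = 0.495), with knockdown arrays of a shared file-name number averaged (0.31, limma adjusted p = 0.0763), with dim probes kept in the fit (limma adjusted p = 0.0555), without knockdown arrays 1 and 2 or 3 and 4 (limma adjusted p = 0.0585 and 0.105) or on slide 3 alone (0.26, limma adjusted p = 0.234). The second probe was dim, at -3.67 to -3.23 in control and -3.27 to -3.02 in knockdown arrays, where the lowest signal well above background was -4.32 to -3.69. Its groups overlapped and its change was 0.30 (limma adjusted p = 0.0511), which became 0.0262 without control array 3 and 0.0452 without knockdown array 1.

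Median scaling moved the change over all tested probes from a median of 0.048 to -0.12, a shift that every gene shares. Measured from the median of all probes, the reported changes were 0.27 for the brighter Foxa2 probe, 0.50 for the brighter Sox17 probe, 0.81 for Hhex, 1.91 for Hnf4a and -0.71 for Foxa1. The calls of Sox17 and Foxa2 were lost under median scaling, and those of Hnf4a, Hhex, Sox7 and Foxa1 were kept.

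**Figure D2:**
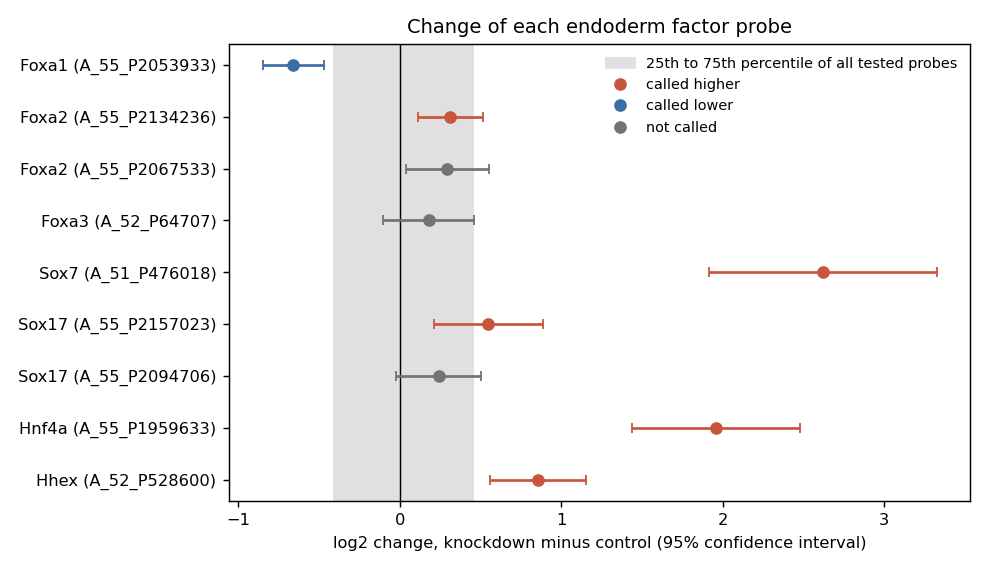
Log2 change, knockdown minus control, of the 9 probes with the 95% confidence interval of the limma fit, coloured by call; the grey band runs from the 25th to the 75th percentile of all tested probes, -0.40 to 0.46. Foxa1 lies below the band, Sox7, Hnf4a, Hhex and the brighter Sox17 probe above it, both Foxa2 probes, Foxa3 and the second Sox17 probe lie within it, and the Sox7 point uses control signals that were not well above background.

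Foxa3, the Foxa protein of gut and liver that acts on metabolic genes, was not called. Its signal was -3.20, -2.89, -2.93 and -3.42 on control arrays and -2.97, -2.95, -2.83 and -2.96 on knockdown arrays. Of the knockdown arrays, number 3 lay above all control arrays and the others lay within the control range. The change was 0.18 with a 95% confidence interval of -0.10 to 0.46 (limma adjusted p = 0.250), and it was -0.020 in the authors' value table and -0.080 on slide 2.

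Foxa1, the paralogue of Foxa2 found in many endodermal epithelia and in ventral neural tissue, fell 1.58-fold. Its signal was 0.051, 0.061, 0.32 and 0.21 on control arrays and -0.44, -0.48, -0.49 and -0.58 on knockdown arrays. Every knockdown array lay below every control array, with a gap of 0.49. The means were 0.16 ± 0.13 and -0.50 ± 0.062, a change of -0.66 (SE 0.082, limma adjusted p = 0.000191). The slides gave -0.64, -0.50 and -0.75, and the gene was called lower under all 23 other settings.

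**Figure D3:**
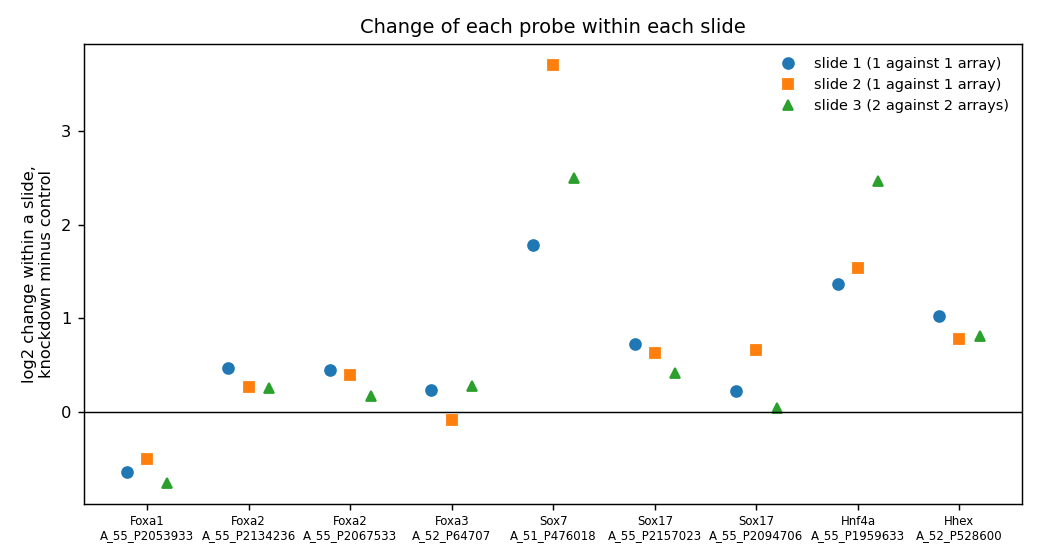
Log2 change within each of the 3 slides, knockdown minus control, for the 9 probes; slides 1 and 2 hold 1 array of each group and slide 3 holds 2 of each. Foxa3 is the probe whose change differs in sign between slides (0.23, -0.080 and 0.28), and the second Sox17 probe ranges from 0.041 to 0.66.

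The paralogues were then compared with each other by the difference of their log2 signals within each array, in 4 pairs, with an exact two-sided permutation test over 70 relabellings whose smallest p is 0.0286. The change of Foxa2 exceeded that of Foxa1 by 0.97 (exact permutation p = 0.0286, adjusted over the 4 pairs 0.0381). The change of Foxa3 exceeded that of Foxa1 by 0.84 (adjusted exact p = 0.0381). Foxa1 thus differed from both other Foxa genes. The difference of 0.13 between Foxa2 and Foxa3 did not pass the test (exact permutation p = 0.171), but it did without control array 4 (0.21, adjusted exact p = 0.0286) and in the authors' value table (0.30, adjusted exact p = 0.0286). For the SoxF pair the size of the difference depends on how dim spots are treated, because the Sox7 control signals were below background. The change of Sox17 minus that of Sox7 was -2.07 on the reported scale, -0.61 with the normexp correction and -0.51 in the authors' value table. With Sox7 at its bound in the control arrays the gap on the reported scale was at least 0.97. The exact permutation test uses these dim signals as they are (adjusted exact p = 0.0381) and is no test of the size.

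**Figure D4:**
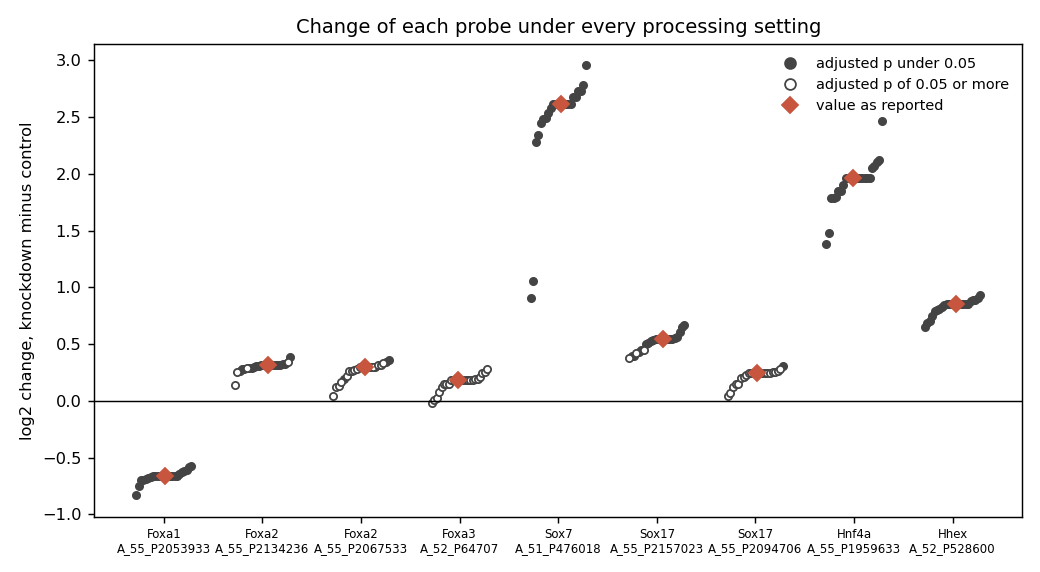
Log2 change of each of the 9 probes under the reported processing (red diamonds) and every other setting run (circles, filled where the limma adjusted p is under 0.05). Foxa1, Sox7, Hnf4a and Hhex are filled throughout, Sox7 drops to 0.91 and 1.05 where dim spots are corrected in another way, and Foxa2, Sox17 and Foxa3 carry open circles.

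The genes whose signals ran most like each factor over the 8 arrays were named by Pearson's r among 14654 tested genes. The arrays fall into 2 groups, so an r over them largely repeats the group difference and is a description only. Foxa1 ran with Eid1 and Sox11 (r = 0.998 for each), and 2138 genes reached an r of 0.95 with it. Hnf4a ran with Ube2t (r = 0.990) and Fndc3b (r = 0.989), Hhex with Sqor (r = 0.997) and Rab5b (r = 0.993), and Sox7 with Prr23a3 (r = 0.995) and Aass (r = 0.993). These 3 factors had 701, 444 and 889 genes at 0.95. Sox17 ran with Abcg2 (r = 0.987) and Gm128 (r = 0.985), with 84 such genes, and Foxa2 with Atg16l2 (r = 0.990) and Prkag1 (r = 0.988), with 57. For Foxa3 the closest were Birc3 (r = 0.911) and Kcnma1 (r = 0.893), and no gene reached 0.95.

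Among 9 tested partners in the liver factor network, 4 rose, 3 fell and 2 were not called, with a median change of 0.076, which was -0.095 after scaling to the array median. The retinoid receptor Rxra rose 2.08-fold (1.06, limma adjusted p = 1.81e-05). The nuclear receptor Nr5a2 fell 4.97-fold (-2.31, limma adjusted p = 1.26e-07). Onecut1, a cut homeodomain factor of liver and pancreas, was below background on all knockdown arrays, at least 1.89-fold lower. Calls in this list went in both directions, as over all tested genes, of which 29.1% were called higher and 28.5% lower. Hnf4g, Nr0b2 and Nr1h4 were not detected on any array.

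The list of plasma protein and lipoprotein genes had 13 of 19 members tested, and a part of Hnf4a in their changes was not tested. Of the 13, 10 rose and none fell (1 was called lower after median scaling), with a median change of 1.30 against 0.044 for all genes. With probes required to be well above background on all 8 arrays, 8 were tested, 6 rose and none fell, with a median of 1.19. Afp, the fetal plasma protein, was below background on all control arrays and at least 9.24-fold higher. Mttp, which loads lipid onto apolipoprotein B, rose 5.45-fold, the retinol carrier Rbp4 rose 4.96-fold and Apoe rose 3.69-fold. Alb, Apoa1, Apoa4 and Apoh were not well above background on any array. The summed level of the tested members was 39.4 to 44.1 in control and 136 to 167 in knockdown arrays, but Apoe alone made up 91.0% and 93.3% of it. The other members summed to 3.73 and 10.1 by group means.

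Markers of the endoderm layers were read beside the factors, and their part in the factors' changes was not tested. Of 12 visceral and primitive endoderm genes, 10 rose and none fell (median 2.21, summed level 52.6 to 57.6 in control and 77.2 to 86.2 in knockdown arrays), among them the endocytic receptor Cubn at 41.4-fold, Spink1 at 17.5-fold and Gata4 at 7.21-fold. Cubn and Gata4 were well above background on 3 of 4 control arrays. The growth factor receptor Pdgfra also rose, but was detected on 1 of 4 control arrays, so no fold is given. Cubn, Gata4 and Pdgfra thus passed the filter through the knockdown arrays alone. With probes required to be well above background on all 8 arrays, 9 genes were tested, 7 rose and none fell, with a median of 1.37. Rhox5, which was not called, made up 71.6% of the summed control level of this list and 52.7% of the knockdown level. Of 12 parietal endoderm genes, 10 rose and 2 fell (median 1.31, summed level 155 to 163 against 383 to 423). They included the basement membrane genes Col4a1 at 3.95-fold, Col4a2 at 3.02-fold and Sparc at 2.77-fold, and the repressor Snai1 at 3.91-fold. Of 9 tested anterior visceral and definitive endoderm genes, 5 rose and 3 fell (median 0.61, summed level 11.05 to 11.69 against 12.56 to 13.19). Here the Wnt inhibitor Dkk1 rose 2.08-fold and the peptide gene Pyy, detected on 3 of 4 control arrays, 6.04-fold, whereas the Nodal inhibitor Lefty1 fell (log2 change -2.07) and Trh fell (log2 change -0.70). Cer1, Gsc, Mixl1 and Nepn of this list were not well above background on any array. Otx2, Lhx1 and Eomes were well above it on all 8 arrays. Otx2 and Lhx1 were called higher (log2 changes of 0.61 and 0.74) and Eomes was not called (-0.21). Cxcr4, detected on 2 of 4 knockdown arrays, was called lower (-1.81).

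Factors of the later gut tube had 7 of 11 members tested, with 2 higher and 3 lower. Their median of -0.035 was not stable: it was -0.56 without control array 1, 0.32 without control array 2 and -1.60 over the 2 genes detected on all arrays. The intestinal factors Cdx2 and Cdx1 fell (log2 changes of -4.03 and -3.42, with Cdx2 detected on 3 of 4 knockdown arrays), Tbx1, detected on 3 of 4 control arrays, rose, and Barx1 was at least 1.82-fold higher. Nodal signalling is the pathway that induces definitive endoderm. Of its 11 genes 2 rose and 7 fell (median -0.51), so 81.8% were called, beside 57.6% of all tested genes. The ligand Nodal was 1.80-fold lower, its effector Smad3 2.07-fold, the receptor Acvr2b 1.71-fold and the convertase Pcsk6 2.10-fold lower. The 2 genes called higher were Tdgf1 and Acvr1b (log2 changes of 0.98 and 0.45).

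Because Foxa2 also marks floor plate, and Sox7 and Sox17 endothelium, markers of both were read. Of 7 tested floor plate genes 3 were called higher and 1 lower (median -0.024, summed level 1.52 to 1.90 in control and 1.07 to 1.35 in knockdown arrays). The share called, 57.1%, was near the 57.6% of all tested genes. Lmx1a made up 48.8% of the summed control level and 18.7% of the knockdown level. The other tested floor plate genes summed to 0.85 and 0.99 by group means. Lmx1a fell 3.59-fold, whereas Nkx2-9, Lmx1b and Nkx2-2 were called higher, with log2 changes of 0.80, 0.51 and 0.33. None of these 3 was called after scaling to the array median, without knockdown arrays 1 and 2 or on slide 3 alone. Shh and Corin were below detection on every array. Of 11 tested endothelial and blood genes 4 rose and 4 fell (median -0.24, or 0.0080 with the normexp correction, summed level 44.4 to 49.9 against 38.4 to 45.7). The receptor Flt1 rose 3.21-fold and the blood factors Runx1 (detected on 3 of 4 control arrays) and Gata1 rose 9.16-fold and 4.92-fold, whereas Lmo2 fell. Egfl7 made up 72.6% of the summed control level and 64.2% of the knockdown level. The other tested genes of this list summed to 12.5 and 15.2 by group means. Cd34 was called higher (log2 change 1.48), Pecam1 was called lower (-0.49) and Kdr was not called (0.17), all 3 detected on all arrays. Tek, not tested, was well above background on 3 of 4 control arrays and not on any knockdown array. The endothelial markers Cdh5, Tie1, Erg, Fli1, Emcn and Sox18, the third SoxF gene, were not well above background on any array.

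**Figure D5:**
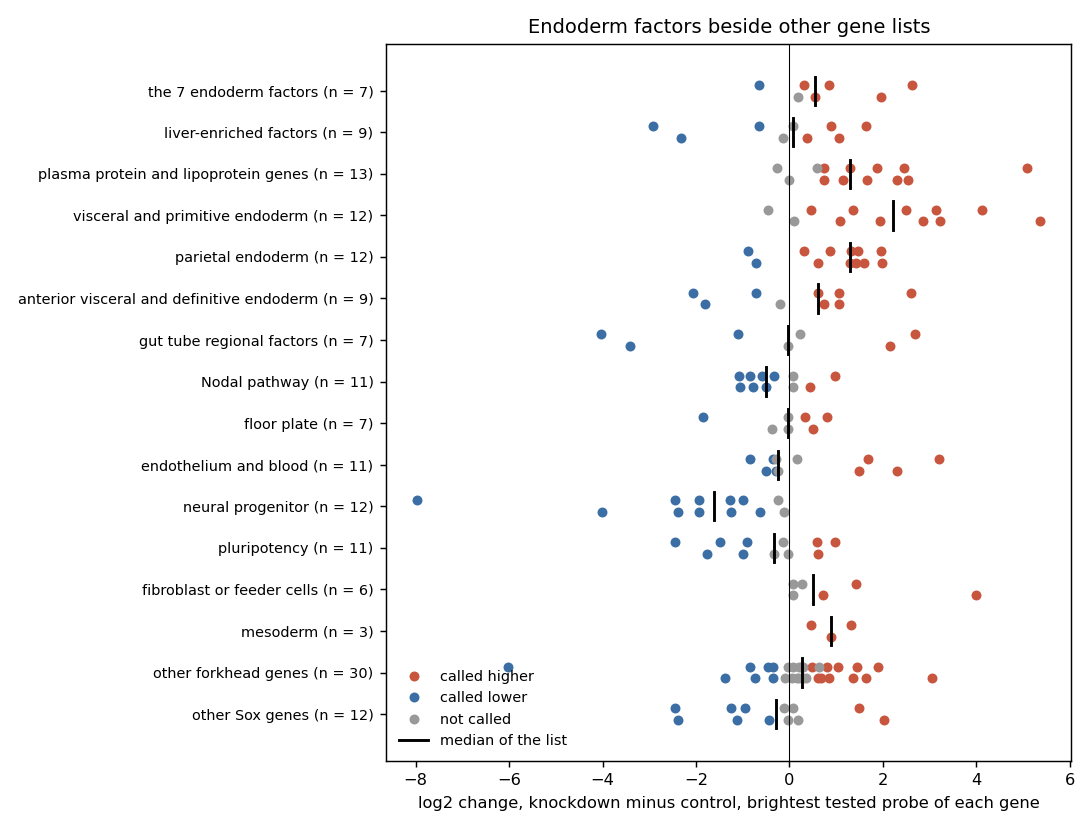
Log2 change, knockdown minus control, of the 7 factors (top) and of the tested genes of the other lists, each by its brightest tested probe, coloured by call, with the list's median as a black bar; genes below background in 1 group are drawn at their measured signals. The factors' median is 0.55, that of visceral and primitive endoderm 2.21 and that of neural progenitor genes -1.61. Over probes well above background on all 8 arrays, visceral and primitive endoderm has a median of 1.37 and neural progenitor genes -1.28.

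Of 30 other tested forkhead genes 11 rose and 7 fell (median 0.27), so 60.0% were called, near the 57.6% of all tested genes. Foxo1 rose 3.73-fold, Foxo6 3.11-fold and Foxc2, detected on 2 of 4 control arrays, 8.25-fold, and Foxb1, a factor of the neural tube and hypothalamus, dropped below background on all knockdown arrays, at least 25.5-fold lower. Of 12 other tested Sox genes 2 rose and 6 fell (median -0.28). The neural genes Sox1 and Sox21 fell 5.24-fold and 5.47-fold, and Sox10 and Sox9, which act in neural crest and glia, rose 4.09-fold and 2.82-fold.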

How the data were processed

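The deposited scanner files hold spot intensity per array from 1-colour Agilent arrays (design 028005, build mm9), extracted with Feature Extraction 10.7.3.1 and corrected for background within each array, per the file headers. A value table of the authors gives log2 signals for these arrays. It correlated at 0.99999 with normexp (offset 50) and quantile-normalized values computed here and served as an alternative; how the authors made it is not given in the sources used here.

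From the processed intensity, outlier spots were dropped, spots of a probe averaged, log2 taken and the array's 75th percentile over non-control spots subtracted (483 to 696 intensity units). Probes detected (well above background) in every array of one group or the other were fitted with limma 3.58.1 (R 4.3.3; lmFit, eBayes, two-sided, Benjamini-Hochberg over 29091 probes, threshold 0.05), and the brightest tested probe stood for a gene. Where a group was below background, the bound is the other group's mean against, per array, the higher of the probe's signal and the lowest signal well above background. The limma fit was tested on simulated data of 29091 probes, in which 50 probes each were changed by -2, -1, 1 and 2. Of the changes of -2 and 2, 96% and 92% were recovered, and of those of -1 and 1, 58% and 68%. In the real comparison 57% of probes were called, so these rates do not give the share of real changes found. The 8 arrays limit the precision.

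Members and lists were chosen with earlier results of these data known. Named are all members, Dnajc2, up to 4 called genes of each list by smallest p, and the 2 genes most like each member; 1 gene that this rule takes is not reported here. Label numbers were compared across groups: residual correlations of same-numbered arrays were 0.11, -0.12, 0.11 and -0.19, so they were not taken as pairs. File-name numbers are shared by knockdown arrays 1 and 2 and by 3 and 4. Knockdown arrays 2 and 4 also carry a TR tag in their file names. The SD of their log2 differences was 0.381 for arrays 1 and 2 and 0.407 for arrays 3 and 4. Knockdown arrays 2 and 3, which share a slide, gave 0.320, and the remaining pairs, on different slides, gave 0.408 to 0.421. These values cannot decide whether a shared number marks a repeat of the same RNA. All arrays were counted, so n = 4 may overstate the separate knockdown samples, and averages of these arrays were run as an alternative. Current gene names came from a RefSeq table, with 26300 probes matched by accession. The slide 3 setting was chosen after seeing the data.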

Additional observations from a re-analysis of the deposited data

Results flagged for a closer look

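Among 20 groups of 4 arrays, the 2 groups of each of the 9 probes and of Dnajc2, 1 held an array far from the others, where chance gives about 1 in 20. Sox7 on control array 2 stood at -6.04 while the other control arrays lay between -5.03 and -4.86, a gap of 0.855 of the group's range. All 4 values were not well above background.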

How the results depend on the processing

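Each value was recomputed under up to 23 other settings, and none reversed a call. Foxa1, Sox7, Hnf4a and Hhex kept their calls under all settings in which they were fitted. With median scaling 3 of the 7 genes were called higher, 5601 probes were called higher and 37.7% of calls were higher, against 50.8% as reported; the brighter Foxa2 and Sox17 probes gave 0.14 and 0.38, both no longer called. With the knockdown arrays of a shared file-name number averaged, 3 genes were called higher and Foxa2 (0.31, limma adjusted p = 0.0763) and Sox17 (0.55, limma adjusted p = 0.0619) were lost, with fewer arrays in the fit; the permutation test of the paralogues could not then pass the threshold. Without knockdown arrays 1 and 2 again 3 genes were called higher, with Foxa2 at 0.34 and Sox17 at 0.45 lost; without 3 and 4 Foxa2 was lost at 0.29. On slide 3 alone 3 genes were called higher, with Foxa2 at 0.26 and Sox17 at 0.42 lost. Foxa2 was also lost, at 0.31, with no filter on dim probes. The second Foxa2 probe was gained with normexp (0.19), with probes above background on all arrays (0.30, limma adjusted p = 0.0448) and with slide as a block (0.30, limma adjusted p = 0.0237). The difference of Foxa2 and Foxa3 was gained with normexp (0.17) and in the authors' table (0.30). The cause of these moves was not tested. Leaving out 1 array gave 0.21 to 0.36 for the second Foxa2 probe, 0.14 to 0.31 for the second Sox17 probe, 0.072 to 0.21 for the difference of Foxa2 and Foxa3, and 1 to 3 mesoderm genes called.

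For the other lists, floor plate genes called numbered 1 with median scaling, with quantile normalization, without knockdown arrays 1 and 2 and on slide 3 alone, and 2 in the authors' table and with averaged arrays, against 4 as reported. Mesoderm genes called numbered 1 with median scaling, quantile normalization, the authors' table, no filter, averaged arrays and without either pair of knockdown arrays, against 3. With probes above background on all 8 arrays, 6 plasma protein, 1 gut tube and 11 other forkhead genes were called. Endothelial and blood genes called numbered 5 without knockdown arrays 3 and 4, and 5 on slide 3 alone, where 5 Nodal pathway genes were called. With the label number as a replicate block 15007 probes were called, against 16594, and 6 of the 7 genes; it changed no member's call. Dim probes such as Sox7 in the controls limit what a fold can mean here.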

Other observations

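Lists of other cells the cultures could hold gave these values. Of 11 pluripotency genes 3 rose and 5 fell (median -0.33), so 72.7% were called, beside 57.6% of all tested genes. Nanog, Esrrb, Klf2 and Zfp42 were among those that fell. The 3 that rose were Tdgf1, Fgf4 and Klf4 (log2 changes of 0.98, 0.61 and 0.58), and Pou5f1 was not called (-0.33). The summed level of all 11 was 407 to 459 in control and 349 to 397 in knockdown arrays, of which Dppa5a, not called, made up 83.1% and 91.9%. Of 6 tested fibroblast or feeder cell genes 3 rose, Thy1 (15.8-fold), Col1a1 and Pdgfrb, and none fell, while Postn and Lum were below detection throughout. The share called was 50%, beside 57.6% of all tested genes. Col1a2, Col3a1 and Dcn were not called (log2 changes of 0.082, 0.080 and 0.28). Of 11 mesoderm genes 3 were tested and all 3, Tbx6, Nkx2-5 and Meox1, were called higher, though under median scaling 1 was. Mesp1, Hand1, Foxf1, Tbx5 and T were among the 8 not tested.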
